A study of Rattus norvegicus with 6 samples.

Results

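Genes of fatty acid synthesis, fatty acid oxidation and lipid droplets were examined in vascular smooth muscle cells cultured from rats, which form the contractile layer of arteries. The members were 45 gene symbols, taken from the count tables by their gene name; 42 of them had a row, among 30945 genes in all. Cd36, Fabp5 and Plin3 were matched to no row by name and were not analysed here under those names. The cells came in 2 groups of 3 RNA sequencing libraries each, labelled siRNA_ANK, for cells given a small interfering RNA against ANK, and Negative_control. Both groups carry the label of primary vascular smooth muscle cells; no source used here gives the age or sex of the animals, how long the knockdown lasted or the sequence of the small interfering RNA. Separate cultures or animals are not stated for the replicates, and the p-values therefore reflect only how much the libraries differ among themselves, a spread that may be technical.

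Cells make fatty acids from cytosolic acetyl-CoA, which acetyl-CoA carboxylase and fatty acid synthase build into palmitate. Elongases and desaturases then lengthen and unsaturate the chain, and acyl-CoA synthetases activate it for use. Activated fatty acids either enter mitochondria through the carnitine shuttle and are broken down by beta-oxidation, or are joined to glycerol and stored as triglyceride in lipid droplets coated with perilipins. SREBP-1 is the main transcriptional activator of the synthetic genes, and the PPAR nuclear receptors bind fatty acids and activate genes of oxidation and storage. In the arterial wall, lipid-laden smooth muscle cells are known from atherosclerotic plaques.

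Each library held 15641259 to 17441548 counts. Levels are given as CPM, counts relative to the scaled total of the library, for comparisons of a gene between groups, and as TPM, which also divides by gene length, for comparisons between genes. Genes were called higher or lower in siRNA_ANK at a Benjamini-Hochberg adjusted p under 0.05 in edgeR's quasi-likelihood test over the 13016 genes that passed the filter on low counts. Ankh, the gene of the ANK protein, was 93.7 ± 22.8 CPM in siRNA_ANK and 352 ± 14.7 CPM in Negative_control (SD, n = 3 each), a 3.76-fold lower level. All 9 smooth muscle markers listed were tested, and 8 were higher in siRNA_ANK (88.9% called, against 40.1% of all genes tested). Their summed level was 5173 to 6197 CPM in siRNA_ANK libraries and 2602 to 3618 CPM in Negative_control libraries. The first principal component of the tested genes put the siRNA_ANK libraries at 30.3, 34.2 and 20.9 and the Negative_control libraries at -30.4, -22.9 and -32.1, so that siRNA_ANK replicate 3 and Negative_control replicate 2 stood closest to each other. Leaving both of these libraries out, 10 members were higher and 18 lower, against 10 and 17 with all 6 libraries.

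Scd, Srebf1 and Fasn, of desaturation, regulation and synthesis, were lower in siRNA_ANK. Called members went in both directions within synthesis (10 lower and 3 higher of 14 tested), oxidation and storage. Of the 38 members tested, 10 were higher and 17 lower, so that 71.1% were called, where 40.1% of all genes tested were called, 19.9% higher and 20.2% lower. Among genes at a mean of at least 5 CPM the shares were 76.5% of 34 members and 45.3% of all genes. The members and the other gene lists were chosen with earlier results of these data known. Their called shares, above, here and below, are therefore descriptions. Changes of at least 1.5-fold were found for 9 members, 4 higher (Elovl6, Hadh, Plin4 and Lipe) and 5 lower (Scd, Srebf1, Fasn, Fabp3 and Plin2). Lipe passed the filter only through the siRNA_ANK libraries, so its place in this count is a description; 15.3% of all genes tested changed by that much. In CPM, siRNA_ANK and Negative_control were fully apart in 76.3% of the 38 members tested and in 51.1% of all genes tested, so separated groups are common in these libraries. The median log2 fold change was -0.15 over the tested members and 0.01 over all genes tested. In bulk RNA, fewer cells of a type and less RNA per cell cannot be told apart.

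**Figure D1:**
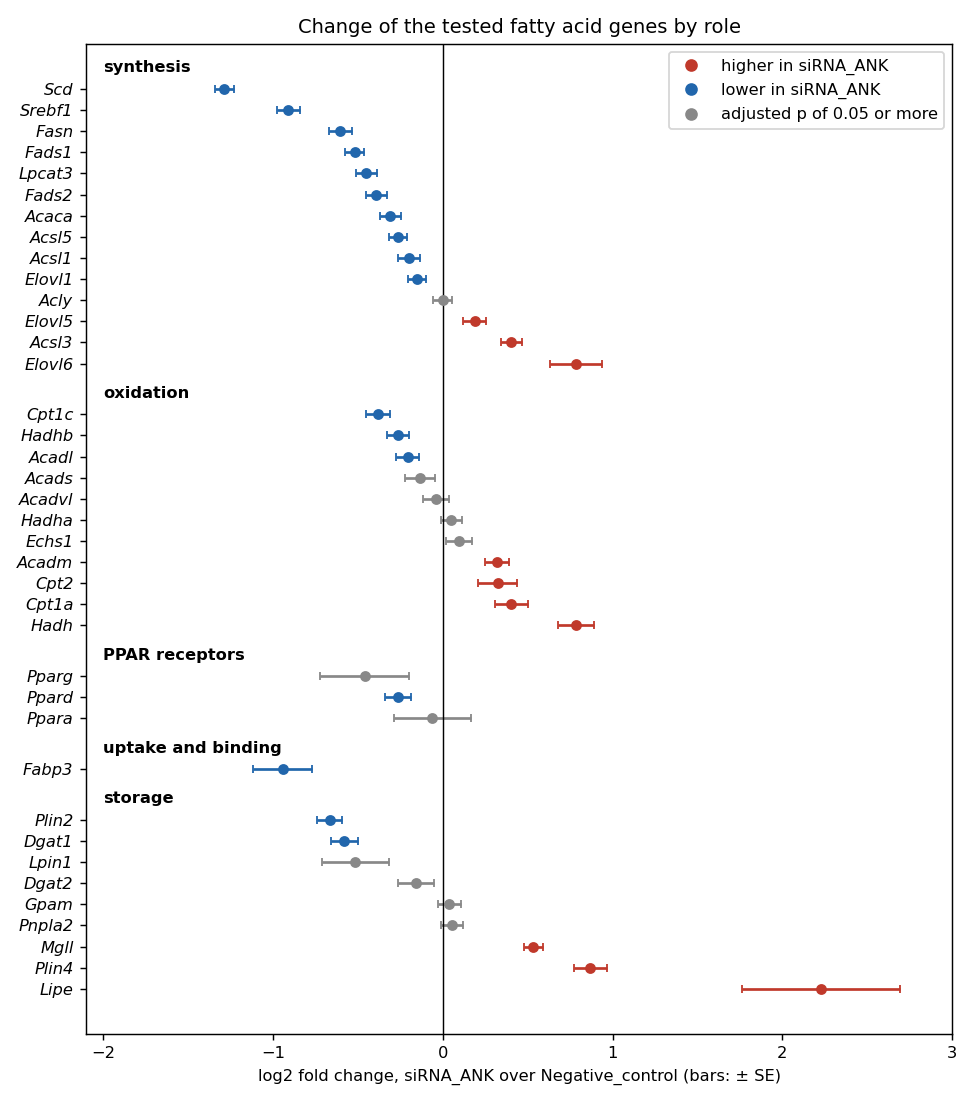
Log2 fold change of each tested member, siRNA_ANK over Negative_control, with its standard error as bars, grouped by role; red points were called higher, blue points lower and grey points neither. In the synthesis group 10 of 14 points are blue, from Elovl1 at -0.15 to Scd at -1.29, whereas the oxidation group has 4 red and 3 blue points between -0.38 and 0.79.

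Most tested genes of synthesis and desaturation were lower in siRNA_ANK. Of 15 genes in this role, 14 were tested, 10 were lower and 3 higher in siRNA_ANK, with a median log2 fold change of -0.29. That is 92.9% called, against 40.1% of all genes tested. Their summed level was 2025 to 2217 CPM in the siRNA_ANK libraries and 2975 to 3111 CPM in the Negative_control libraries. Scd encodes stearoyl-CoA desaturase, the enzyme that makes oleate and other monounsaturated fatty acids (ENSRNOG00000013552, chromosome 1, 243269747 to 243282562 on the minus strand of mRatBN7.2). It measured 169, 175 and 163 CPM in siRNA_ANK replicates 1, 2 and 3 and 398, 422 and 416 CPM in Negative_control replicates 1, 2 and 3. The 3 siRNA_ANK libraries lay close together and far below every control. The level was 2.44-fold lower, and the log2 fold change was -1.29 ± 0.05 with its SE (edgeR adjusted p = 4.898e-10). Scd2, a near copy of Scd that lies near it on chromosome 1 (243169236 to 243182232) and is counted among the other pathway genes, was more abundant and 2.21-fold lower, at 1676 ± 35.0 CPM in siRNA_ANK and 3711 ± 143 CPM in Negative_control (SD, n = 3 each). The ratio of Scd2 to Scd in TPM was 9.47 ± 0.529 in siRNA_ANK and 8.59 ± 0.452 in Negative_control; reads of the near-identical parts of these genes may be split between them.

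Srebf1, which encodes SREBP-1, measured 296, 288 and 282 CPM in the siRNA_ANK libraries and 522, 504 and 601 CPM in the Negative_control libraries. All controls lay above all siRNA_ANK libraries, and the control spread came mainly from replicate 3. The level was 1.88-fold lower in siRNA_ANK (log2 fold change -0.91 ± 0.07, edgeR adjusted p = 1.091e-07). Srebf1 (chromosome 10, 45007637 to 45029650, minus strand) overlaps Rai1 on the plus strand, and the strand setting of the counting is not given; Rai1 was at 99.98 CPM in siRNA_ANK and 102.5 CPM in Negative_control, with an edgeR adjusted p of 0.6828. Fasn, fatty acid synthase (chromosome 10, 106072091 to 106090261), measured 506, 538 and 446 CPM in siRNA_ANK and 733, 768 and 763 CPM in Negative_control. The lowest control was well above the highest siRNA_ANK library, and the log2 fold change was -0.60 ± 0.07 (edgeR adjusted p = 5.373e-06).

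The promoters of Scd and Srebf1, the synthesis members with the largest falls, are shown because both genes belong to the SREBP pathway. The sequences are RefSeq's for build GRCr8 and cover 250 bases before to 50 bases after the annotated start, 5′ to 3′ on the gene's strand: chr1:253231682-253231981, minus strand, for Scd and chr10:45529115-45529414, minus strand, for Srebf1. Capitals mark CCAAT on either strand, the letters bound by NF-Y, a factor known to act beside SREBP; it stands in Srebf1 as its reverse complement at position -169 from the start, and in Scd not at all.
Scd: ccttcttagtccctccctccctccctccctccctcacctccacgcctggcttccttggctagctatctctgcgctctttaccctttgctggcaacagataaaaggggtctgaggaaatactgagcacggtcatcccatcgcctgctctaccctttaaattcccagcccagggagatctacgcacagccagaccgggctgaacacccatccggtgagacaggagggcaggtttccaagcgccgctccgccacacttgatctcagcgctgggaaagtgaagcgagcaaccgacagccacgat
Srebf1: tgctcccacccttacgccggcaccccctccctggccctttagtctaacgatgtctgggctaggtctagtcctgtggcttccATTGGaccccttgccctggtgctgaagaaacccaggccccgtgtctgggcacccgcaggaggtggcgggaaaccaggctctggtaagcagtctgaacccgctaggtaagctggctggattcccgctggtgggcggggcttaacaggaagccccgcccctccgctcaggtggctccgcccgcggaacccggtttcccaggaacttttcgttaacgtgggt
Both windows were searched on both strands for the sterol regulatory element TCACNCCAC, for CCAAT, for the E-box CACGTG and for 2 copies of AGGTCA with 1 base between them, the repeat bound by PPAR with its partner RXR; of these motifs, the CCAAT of Srebf1 was the single match in both windows. Of the 42 members with a row, 31 had a promoter in the RefSeq table. The 11 without one, which were not searched, were Acaca, Fasn, Elovl6, Cpt1c, Acadl, Ppard, Fabp4, Lpl, Lipe, Dgat1 and Dgat2. None of those 31 windows held the sterol regulatory element, which 1.12% of all 33469 promoters held, or the PPAR repeat, held by 0.0538%. CCAAT was in 13 of the 31 (41.9%, against 37.5% of all promoters) in 8 of the 12 synthesis members with a window and in 4 of the 8 of those that were lower. Over all roles it was in 4 of 11 members that were lower (36.4%) and 3 of 8 that were higher (37.5%). A match is a string of letters in this window and not evidence of binding, and its absence says nothing about more distant sites.

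Carboxylation, desaturation of polyunsaturated chains and activation changed less. Acaca, the carboxylase that makes malonyl-CoA, was 156, 141 and 133 CPM in siRNA_ANK against 177, 175 and 181 CPM in Negative_control, and was called lower (log2 fold change -0.31 ± 0.06, edgeR adjusted p = 0.001215). Acacb, the carboxylase of the mitochondrial surface, had 6 counts over the siRNA_ANK libraries and 8 over the controls and was not tested. Acly, which supplies cytosolic acetyl-CoA from citrate, was 217, 228 and 200.4 CPM in siRNA_ANK and 215, 216 and 215 CPM in Negative_control, so the siRNA_ANK values lay on both sides of the controls. Its 2 means differed by less than their spread (215 ± 13.8 CPM in siRNA_ANK and 215 ± 0.381 CPM in Negative_control, edgeR adjusted p = 0.9977), and its overlapping neighbour Eif1 was called lower (edgeR adjusted p = 0.003025). Fads1 and Fads2, the front-end desaturases of polyunsaturated fatty acids that lie near each other on chromosome 1, fell 1.43-fold and 1.31-fold. Fads1 was 115, 106 and 113 CPM in siRNA_ANK and 154, 167 and 157 CPM in Negative_control, and Fads2 was 88.4 ± 5.82 CPM in siRNA_ANK and 116 ± 3.85 CPM in Negative_control (SD, n = 3 each). Lpcat3, which puts polyunsaturated chains into phospholipids, was 79.9, 74.6 and 70.6 CPM in siRNA_ANK and 103, 99.0 and 106 CPM in Negative_control.

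The elongases did not move together. Elovl6, which extends palmitate to stearate, was higher at 17.9, 19.7 and 12.8 CPM in siRNA_ANK against 8.83, 11.2 and 9.25 CPM in Negative_control (log2 fold change 0.79 ± 0.16, edgeR adjusted p = 0.001347). siRNA_ANK replicate 3 lay nearest to the controls, and without it the log2 fold change was 0.94. Elovl5, which extends polyunsaturated chains, was 139 ± 8.31 CPM in siRNA_ANK and 122 ± 10.4 CPM in Negative_control, with groups that overlapped (edgeR adjusted p = 0.0401). Elovl1, the elongase of saturated very long chains, was 103 ± 3.34 CPM in siRNA_ANK and 114 ± 1.89 CPM in Negative_control (edgeR adjusted p = 0.03927). Both small changes lost their call when single libraries were left out: Elovl5 without siRNA_ANK replicate 1 or 2 or Negative_control replicate 1 or 3 (adjusted p = 0.1054, 0.1491, 0.1581 and 0.1904), and Elovl1 without siRNA_ANK replicate 1 or any control (adjusted p = 0.151, 0.1228, 0.0559 and 0.1177). DESeq2 also called neither (adjusted p = 0.06455 and 0.07268). The ratio of Elovl6 to Elovl5 in TPM was 0.183 ± 0.0296 in siRNA_ANK and 0.122 ± 0.00712 in Negative_control.

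Acyl-CoA synthetases, which attach fatty acids to coenzyme A, divided as well. Acsl3, the form found on the endoplasmic reticulum and nascent lipid droplets, rose 1.32-fold, at 90.2, 94.4 and 83.3 CPM in siRNA_ANK against 69.0, 67.6 and 66.0 CPM in Negative_control. Acsl5 fell 1.20-fold, at 158, 156 and 156 CPM in siRNA_ANK against 195, 181 and 189 CPM in Negative_control. In both genes the groups were fully apart; Acsl5 overlaps Zdhhc6, which was also called lower (edgeR adjusted p = 0.02715). Acsl1 was 50.7 ± 1.73 CPM in siRNA_ANK and 58.3 ± 2.54 CPM in Negative_control (edgeR adjusted p = 0.02385), and its call was lost without siRNA_ANK replicate 1 or Negative_control replicate 2 or 3 (adjusted p = 0.06094, 0.08378 and 0.07709). The ratio of Acsl3 to Acsl1 in TPM was 2.14 ± 0.0618 in siRNA_ANK and 1.41 ± 0.0885 in Negative_control.

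**Figure D2:**
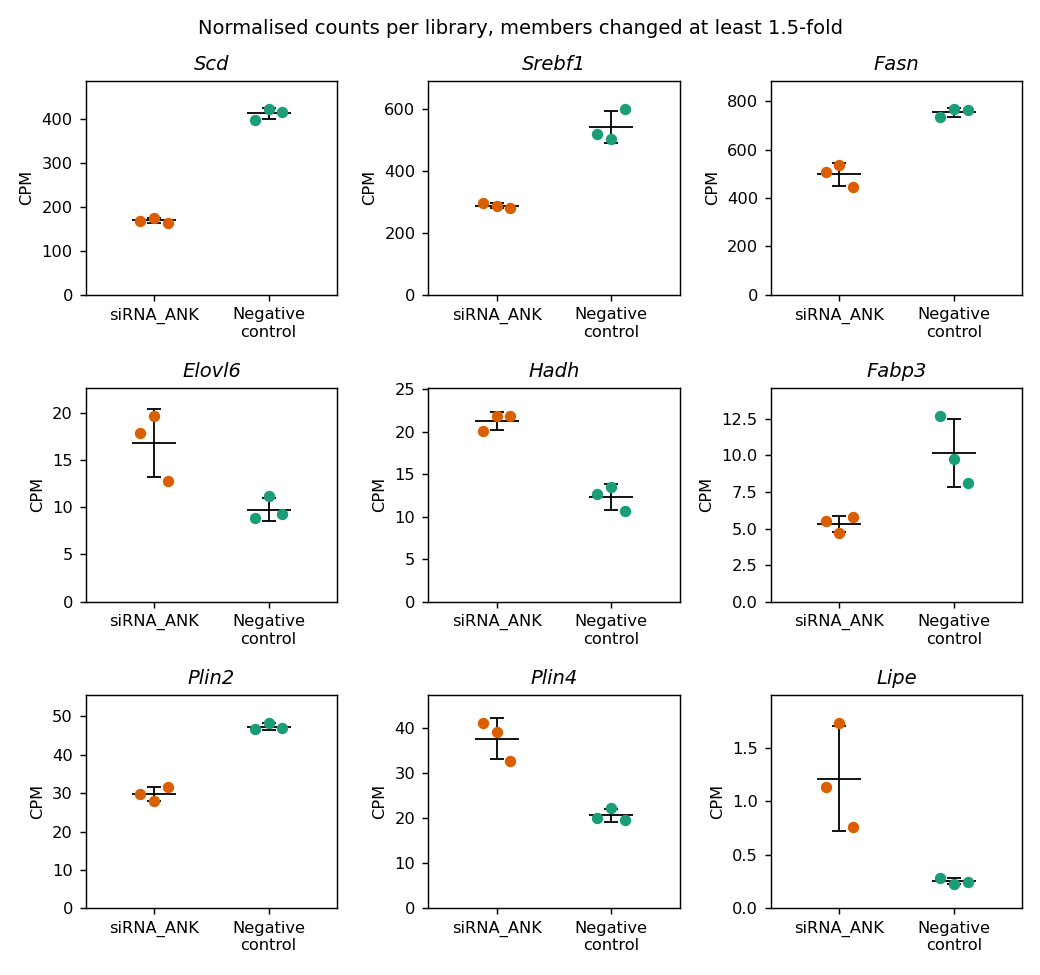
Normalised counts (CPM) in every library for the 9 members that were called with a change of at least 1.5-fold; points are libraries, the horizontal mark is the mean and the bars are the SD of 3 libraries. The 9 genes were picked for their change, so the separation of the points in each panel is a description; Elovl6 and Lipe show the widest spread among the siRNA_ANK libraries relative to their means.

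Of 29 other synthesis genes named, 27 had a row and 21 were tested; 7 were lower and 3 higher, which is 47.6% called, near the 40.1% of all genes tested. Besides Scd2, Fads3, a desaturase-like neighbour of Fads1 and Fads2, fell 1.57-fold to 233 ± 29.6 CPM in siRNA_ANK, against 365 ± 12.9 CPM in Negative_control. Acsl4, the synthetase that prefers arachidonate, was 119.9 ± 6.47 CPM in siRNA_ANK and 172 ± 6.16 CPM in Negative_control (SD, n = 3 each). Acss2, which makes cytosolic acetyl-CoA from acetate, went the other way, with 17.8, 20.9 and 14.9 CPM in siRNA_ANK and 8.33, 8.06 and 5.69 CPM in Negative_control (log2 fold change 1.27 ± 0.16, edgeR adjusted p = 2.502e-05). The median log2 fold change of the 21 genes was -0.08, and the number higher was 5 without siRNA_ANK replicate 3.

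Per length, the most abundant member in siRNA_ANK was the oxidation gene Hadhb, at 269 ± 22.8 TPM in siRNA_ANK and 329 ± 2.75 TPM in Negative_control, where it was second to Srebf1. In Negative_control the synthesis genes ran from Srebf1 (346 ± 36.4 TPM) through Scd (248.7 ± 8.98 TPM) and Fasn (211 ± 6.61 TPM) down to Elovl6 (11.3 ± 1.43 TPM) and Acacb (0.0518 ± 0.00843 TPM). Among the synthesis genes in siRNA_ANK, Srebf1 was again the highest at 181 ± 6.30 TPM and Fasn was next at 136 ± 14.0 TPM, which did not differ from Acly at 131 ± 9.59 TPM beyond the spread. Scd stood at rank 8 of the 15 synthesis genes in siRNA_ANK (100.2 ± 4.36 TPM), within the spread of Lpcat3 and Elovl5, against rank 2 in Negative_control.

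**Figure D3:**
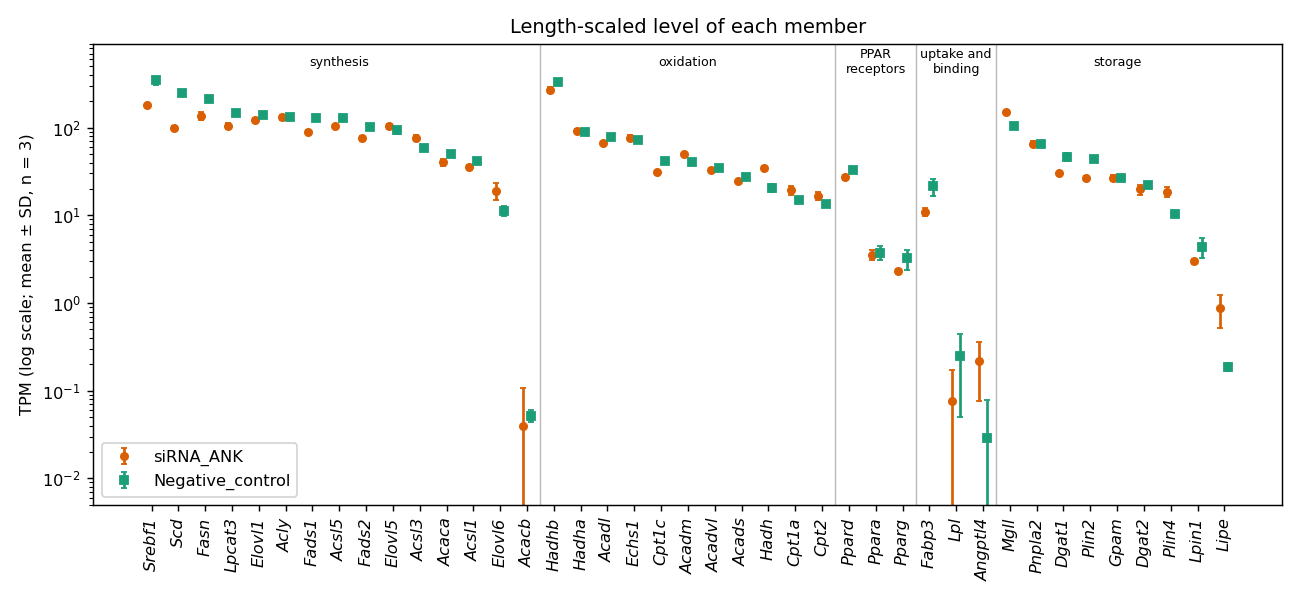
Mean level of each detected member in TPM on a log axis, siRNA_ANK as circles and Negative_control as squares, with SD over 3 libraries, ordered within each role by the Negative_control mean; bars that reach 0 run off the axis. Scd, Srebf1 and Fasn show visibly lower circles than squares, and Acacb, Lpl, Angptl4 and Lipe lie under 1 TPM in both groups.

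Oxidation genes showed no common direction. All 11 were tested, and 4 were higher, 3 lower and 4 not called, with a median log2 fold change of 0.05. That is 63.6% called, against 40.1% of all genes tested. Their summed level was 551 to 603 CPM in siRNA_ANK and 595 to 605 CPM in Negative_control, so the groups overlapped. Hadh, the hydroxyacyl-CoA dehydrogenase of short and medium chains (chromosome 2, 219787927 to 219830353), rose most, at 20.02, 21.9 and 21.8 CPM in siRNA_ANK against 12.7, 13.5 and 10.6 CPM in Negative_control. Every siRNA_ANK value was above every control value, and the log2 fold change was 0.79 ± 0.11 (edgeR adjusted p = 4.064e-05). Acadm, the medium-chain acyl-CoA dehydrogenase, rose 1.25-fold, at 42.0, 42.2 and 42.1 CPM in siRNA_ANK and 33.0, 36.0 and 32.2 CPM in Negative_control. Acadl, the long-chain form, was called lower (38.6 ± 0.887 CPM in siRNA_ANK and 44.6 ± 1.16 CPM in Negative_control, edgeR adjusted p = 0.02234). That call was lost without siRNA_ANK replicate 1 or 2 or Negative_control replicate 1 or 3 (adjusted p = 0.05994, 0.06948, 0.08938 and 0.06402).

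The carnitine shuttle genes differed by isoform. Cpt1a, the carnitine palmitoyltransferase of the outer mitochondrial membrane, was 29.6, 32.1 and 25.5 CPM in siRNA_ANK and 23.3, 22.5 and 20.1 CPM in Negative_control (log2 fold change 0.40 ± 0.10, edgeR adjusted p = 0.004383). Cpt1c, the isoform known from the endoplasmic reticulum of neurons, was 30.8, 30.8 and 33.0 CPM in siRNA_ANK and 39.7, 42.0 and 41.6 CPM in Negative_control (log2 fold change -0.38 ± 0.07, edgeR adjusted p = 0.0005981). The groups were apart in both genes, in opposite directions, and the ratio of Cpt1a to Cpt1c in TPM was 0.640, 0.695 and 0.515 in siRNA_ANK and 0.392, 0.357 and 0.321 in Negative_control. Cpt2, the transferase of the inner membrane, was 14.1 ± 1.42 CPM in siRNA_ANK and 11.2 ± 0.943 CPM in Negative_control (edgeR adjusted p = 0.0369). Leaving out siRNA_ANK replicate 1 or 2 or any control ended the Cpt2 call (adjusted p between 0.05198 and 0.1802).

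Hadha and Hadhb encode the 2 subunits of the mitochondrial trifunctional protein and lie head to head on chromosome 6. Hadhb, the more abundant of the pair, was 204, 199.9 and 237 CPM in siRNA_ANK and 260.4, 255 and 254 CPM in Negative_control, and was called lower (log2 fold change -0.26 ± 0.07, edgeR adjusted p = 0.004876). Hadha was 91.1, 85.7 and 98.3 CPM in siRNA_ANK and 86.1, 88.8 and 90.9 CPM in Negative_control, with overlapping groups. Acadvl, Acads and Echs1, for very long and short chain dehydrogenation and for hydration of the double bond, were not called, with log2 fold changes of -0.04, -0.13 and 0.10. Of 30 other oxidation genes named, 29 had a row and 28 were tested; 5 were higher and 2 lower, which is 25.0% of those tested and below the 40.1% of all genes tested, with a median log2 fold change of 0.02. Hsd17b4, a peroxisomal oxidation enzyme, rose 1.32-fold, and the thiolase gene Acaa2 and the isomerase gene Ech1 rose 1.44-fold and 1.40-fold. Slc22a5, the carnitine transporter of the cell membrane, was 9.68 ± 1.28 CPM in siRNA_ANK and 13.6 ± 2.01 CPM in Negative_control, a call lost without siRNA_ANK replicate 2 or Negative_control replicate 3 (adjusted p = 0.0501 and 0.07046). Without siRNA_ANK replicate 3 the number of these genes that were lower was 4, without siRNA_ANK replicate 1 or Negative_control replicate 1 it was 1, and without Negative_control replicate 3 it was 0 by edgeR; the number higher was 3 without Negative_control replicate 1.

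Of the PPAR receptors, Ppard was the most abundant, at 27.2 ± 1.69 TPM in siRNA_ANK and 33.3 ± 1.46 TPM in Negative_control. In CPM it was 31.2, 30.1 and 34.5 in siRNA_ANK and 37.1, 38.3 and 39.7 in Negative_control, below all controls in each siRNA_ANK library (log2 fold change -0.27 ± 0.08, edgeR adjusted p = 0.01222). The call was lost without siRNA_ANK replicate 2 or Negative_control replicate 3 (adjusted p = 0.05095 and 0.05353). Pparg, the receptor of adipocyte differentiation, was low at 1.86, 1.68 and 1.90 CPM in siRNA_ANK and 3.21, 2.30 and 1.94 CPM in Negative_control. Its groups did not overlap, but the lowest control was close to the highest siRNA_ANK library, and it was not called (edgeR adjusted p = 0.1808). Ppara, known for its role in liver oxidation, was 2.58 ± 0.316 CPM in siRNA_ANK and 2.69 ± 0.495 CPM in Negative_control, with overlapping groups. Among 10 partner receptors and cofactors listed, 9 were tested. Of those 9, only the coactivator subunit Med1 was lower (1.22-fold), which is 11.1% called, against 40.1% of all genes tested. None was called higher by edgeR or DESeq2, and none had an unadjusted p under 0.05 in that direction, except that 1 was called higher without siRNA_ANK replicate 3. The number lower was 2 without siRNA_ANK replicate 1 or 3.

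Uptake and binding genes were mostly at or near 0 counts. Fabp3, the heart-type fatty acid binding protein that carries fatty acids in the cytosol, was the single tested member of this role: 5.52, 4.67 and 5.76 CPM in siRNA_ANK against 12.7, 9.73 and 8.12 CPM in Negative_control. Groups did not overlap, and the log2 fold change was -0.94 ± 0.17 (edgeR adjusted p = 0.0005842). Fabp3 overlaps Zcchc17 on the opposite strand, which was also lower (18.2 CPM in siRNA_ANK and 24.9 CPM in Negative_control, edgeR adjusted p = 0.00169). The overlap is between whole gene spans and the strand setting is not known, so whether the 2 genes share reads was not tested. A row without a symbol, ENSRNOG00000049075, whose deposited description names the epidermal-type protein FABP5, was looked at after its values were seen and is not counted among the members. It measured 35.1, 33.4 and 42.9 CPM in siRNA_ANK and 76.2, 78.7 and 66.1 CPM in Negative_control, 1.99-fold lower with groups apart (edgeR adjusted p = 4.221e-06); rows described as near copies of this gene exist, so its reads may be shared.

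Fabp4, the adipocyte and macrophage form, had 0 counts in all 6 libraries, which allows a level of up to 0.190 CPM per library at 3 counts, for counting error only. Lpl, lipoprotein lipase, had 5 counts over the siRNA_ANK libraries and 16 over the controls, and Angptl4, its secreted inhibitor and a PPAR target, had 7 and 1; both were under the filter. Of 15 other uptake genes named, 14 had a row and 9 were tested, 5 of them lower and 3 higher (88.9% called, against 40.1% of all genes tested). Slc27a4, a fatty acid transport protein, was 45.1, 40.8 and 41.6 CPM in siRNA_ANK and 74.9, 69.5 and 76.3 CPM in Negative_control. Slc27a3, of the same family, was 10.1, 9.40 and 11.2 CPM in siRNA_ANK and 4.16, 3.69 and 4.37 CPM in Negative_control. The 2 transporters thus moved in opposite directions, 1.73-fold lower and 2.51-fold higher. Dbi, which encodes the acyl-CoA binding protein, fell 1.93-fold to 26.1 ± 3.05 CPM in siRNA_ANK, against 50.4 ± 6.10 CPM in Negative_control, and the lipoprotein receptor gene Vldlr rose 1.38-fold.

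Lipid droplet and storage genes divided between synthesis of triglyceride, droplet coats and lipases. Of 10 members named, 9 had a row and were tested, 3 were higher and 2 lower, with a median log2 fold change of 0.04. That is 55.6% called, against 40.1% of all genes tested. The higher ones include Lipe, which passed the filter only through the siRNA_ANK libraries. Their summed level was 467 to 476 CPM in siRNA_ANK and 407 to 419 CPM in Negative_control. Mgll gave the largest single part of it, at 232 ± 6.67 CPM in siRNA_ANK and 160 ± 7.83 CPM in Negative_control. The gap between groups was wider in Mgll alone than in the sum, so the sum does not show a rise of the other storage members. The 2 perilipins moved in opposite directions. Plin2, the droplet coat protein of most cells, was 29.9, 28.1 and 31.6 CPM in siRNA_ANK and 46.7, 48.4 and 46.9 CPM in Negative_control (log2 fold change -0.67 ± 0.07, edgeR adjusted p = 5.018e-06). Plin4, a perilipin of adipocytes and muscle, was 41.2, 39.1 and 32.6 CPM in siRNA_ANK and 19.97, 22.3 and 19.6 CPM in Negative_control (log2 fold change 0.87 ± 0.10, edgeR adjusted p = 6.711e-06). Both had groups that were fully apart. In TPM, Plin2 was above Plin4 by less in siRNA_ANK (26.9 ± 1.37 and 18.7 ± 2.42 TPM) than in Negative_control (43.4 ± 0.847 and 10.4 ± 0.704 TPM). Plin4 (chromosome 9, 929176 to 938056) overlaps Hdgfl2 on the other strand, which was not called (edgeR adjusted p = 0.4594).

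The lipases act in turn on stored triglyceride. Pnpla2, the triglyceride lipase of the first step, was 52.6, 55.3 and 50.02 CPM in siRNA_ANK and 52.3, 49.3 and 50.4 CPM in Negative_control, with overlapping groups. Lipe, hormone-sensitive lipase, was scarce, with 1.14, 1.74 and 0.760 CPM in siRNA_ANK and 0.281, 0.230 and 0.250 CPM in Negative_control. These values come from 60 counts over the siRNA_ANK libraries and 13 over the controls; the gene passed the filter only because of the siRNA_ANK group, where it is high, and had a log2 fold change of 2.23 ± 0.46 (edgeR adjusted p = 0.001526). Mgll, which completes the breakdown and also degrades the endocannabinoid arachidonoylglycerol, was the most abundant storage gene at 149.8 ± 3.97 TPM in siRNA_ANK and 105 ± 4.73 TPM in Negative_control. Its CPM values were 235, 224 and 236 in siRNA_ANK and 157, 169 and 154 in Negative_control, all apart (log2 fold change 0.53 ± 0.06, edgeR adjusted p = 4.078e-06).

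The windows of Plin2 and Mgll are printed because both hold the E-box CACGTG, in capitals, close to the start, while the genes changed in opposite directions. They are RefSeq sequences of build GRCr8, 5′ to 3′ on the gene's strand: chr5:106228969-106229268, minus strand, for Plin2 and chr4:122749186-122749485, plus strand, for Mgll.
Plin2: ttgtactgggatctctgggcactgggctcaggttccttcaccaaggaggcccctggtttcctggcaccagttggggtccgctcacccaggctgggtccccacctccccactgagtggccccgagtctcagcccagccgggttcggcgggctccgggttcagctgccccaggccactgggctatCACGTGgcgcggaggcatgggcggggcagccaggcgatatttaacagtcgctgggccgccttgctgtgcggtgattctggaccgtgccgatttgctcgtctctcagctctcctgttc
Mgll: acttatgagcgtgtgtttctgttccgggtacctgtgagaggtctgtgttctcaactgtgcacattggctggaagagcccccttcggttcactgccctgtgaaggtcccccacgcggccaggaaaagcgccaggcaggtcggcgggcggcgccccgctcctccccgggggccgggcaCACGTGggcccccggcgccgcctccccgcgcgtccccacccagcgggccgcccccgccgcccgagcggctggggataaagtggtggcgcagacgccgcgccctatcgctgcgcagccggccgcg
The E-box begins at position -67 in Plin2 and -74 in Mgll. Elovl5 holds it at -212, so 3 of the 31 members with a window had it (9.68%, against 6.42% of all promoters).

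Genes of triglyceride assembly were lower or not called. Dgat1, which catalyses the last step, was 32.0, 30.9 and 31.7 CPM in siRNA_ANK and 46.2, 43.2 and 52.2 CPM in Negative_control, all apart (log2 fold change -0.58 ± 0.08, edgeR adjusted p = 4.585e-05). Its partner on the opposite strand, Hsf1, was not called (edgeR adjusted p = 0.756). Dgat2, the unrelated enzyme of the same step, was 21.2, 20.6 and 26.7 CPM in siRNA_ANK and 23.2, 27.0 and 26.0 CPM in Negative_control. Only siRNA_ANK replicate 3 lay among the controls. Dgat2 was not called with all libraries (edgeR adjusted p = 0.2584) and was called lower without that replicate (edgeR adjusted p = 0.0156). In 12 of 14 alternative settings it was not called, with log2 fold changes from -0.28 to -0.09 over all 14. Lpin1, a phosphatidate phosphatase, was 3.68 ± 0.179 CPM in siRNA_ANK and 5.28 ± 1.27 CPM in Negative_control and was not called (edgeR adjusted p = 0.05152). It was called lower without Negative_control replicate 2 (edgeR adjusted p = 0.02149). In 9 of 13 alternative settings it was not called, and the adjusted p over these edgeR, DESeq2 and limma-voom settings was 0.02109 to 0.2541. Gpam, the mitochondrial acyltransferase of the first step, was 59.4 ± 4.05 CPM in siRNA_ANK and 57.8 ± 3.05 CPM in Negative_control, with overlapping groups.

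The other storage genes leaned to the lower side. Of 29 listed, 22 were tested, 12 were lower (54.5%, against 20.2% of all genes tested) and none higher by edgeR; 14 were lower and none higher at an unadjusted p under 0.05, and DESeq2 called 10 lower and none higher. Their median log2 fold change was -0.26, against 0.01 over all genes tested. Soat1, which makes cholesteryl esters for droplets, was 85.0, 85.7 and 84.9 CPM in siRNA_ANK and 168, 151 and 162 CPM in Negative_control (log2 fold change -0.91 ± 0.06, edgeR adjusted p = 2.631e-08). The acyltransferase gene Agpat4, the phosphatidate phosphatase gene Lpin3 and Aup1, a droplet protein that also acts in protein degradation at the endoplasmic reticulum, fell 1.70-fold, 1.84-fold and 1.53-fold. The plot of calls by role sets these counts beside those of the members.

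**Figure D4:**
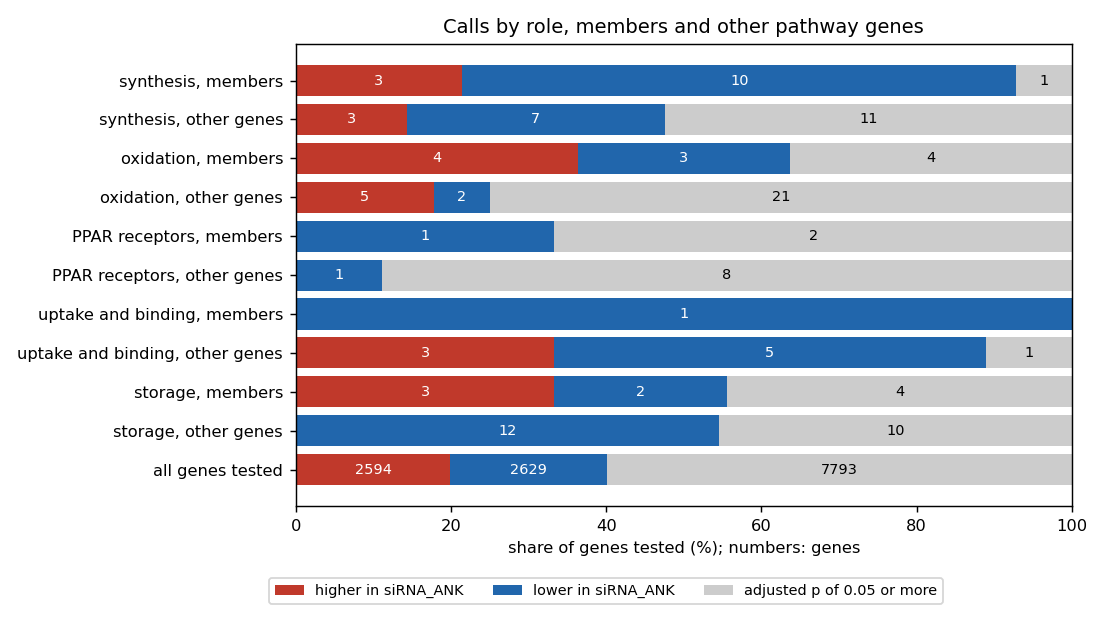
Share of tested genes called higher (red), lower (blue) or neither (grey) in siRNA_ANK, for the members and for the other listed genes of each role, with all genes tested at the bottom; numbers inside the bars are genes. Synthesis members have 10 of 14 genes in blue, other storage genes 12 of 22 in blue and 0 in red, and other oxidation genes 21 of 28 in grey.

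Markers of other cells that handle fatty acids were measured beside these genes. Of 7 adipocyte markers with a row, 5 had 0 counts in every library, including Adipoq, Lep and Retn, and the summed level was 0 to 0.180 CPM in siRNA_ANK and 0 to 0.125 CPM in Negative_control. Of 10 macrophage markers, 5 had 0 counts, including Ptprc and Adgre1; the summed level, mostly Cd14, was 11.3 to 14.9 CPM in siRNA_ANK and 24.8 to 28.1 CPM in Negative_control. Of 9 endothelial markers with a row, 4 had 0 counts, including Cdh5 and Kdr, and the sum, mostly Egfl7, was 6.71 to 9.24 CPM in siRNA_ANK and 11.6 to 14.9 CPM in Negative_control. Fibroblast markers summed to 234 to 248 CPM in siRNA_ANK and 176 to 193 CPM in Negative_control, with 5 of 7 tested called higher and 1 lower. That is 85.7% called, against 40.1% of all genes tested. The part of the fibroblast and smooth muscle markers in the changes of the fatty acid genes was not tested.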

How the data were processed

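The deposited files hold whole-number counts per gene, 1 file per library, that the authors made with featureCounts 1.5.0-p3 on genome build mRatBN7.2, per the submitters' processing notes, which also name DESeq2. No source used here gives the aligner, strand setting or read filters, and 15 members overlap another gene model. The filter on low counts was edgeR's filterByExpr (edgeR 4.0.16, R 4.3.3; minimum count 10, minimum total 15), and scaling was by TMM (0.979 to 1.02). The comparison of siRNA_ANK with Negative_control was edgeR's two-sided quasi-likelihood test with robust dispersion, without covariates, and p-values were adjusted over the 13016 genes tested. The SE is the log2 fold change over the square root of F. TPM used the gene lengths of the files. With 3 libraries in each group the smallest p of an exact permutation test is 0.1, and none is given. Library totals of 15641259 to 17441548 counts make 1 count worth 0.0563 to 0.0633 CPM. The steps were tested on simulated data. No pair of replicates agreed within sampling noise (chi-square per degree of freedom 2.83 to 12.3).

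The members, lists and named-gene rule were chosen with earlier results of these data known: values in every library for members changed at least 1.5-fold and for the 2 most abundant others per role, and up to 4 called other pathway genes per role. Some further members are given in the same way. Alternatives were DESeq2 1.42.0, limma-voom (limma 3.58.1), DESeq2 size factors and upper quartile scaling, 2 filters, the replicate number as a block, a 1.5-fold limit, and leaving out libraries.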

Additional observations from a re-analysis of the deposited data

How the results depend on the processing

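Over 14 alternative settings for 57 single genes, 746 of 794 values kept direction and side of the threshold, and 44 genes did so throughout; Scd, Srebf1, Fasn, Elovl6, Hadh, Fabp3, Plin2 and Plin4 were among them. Lipe fell under the filter at 5 CPM, and since it was tested only through its siRNA_ANK counts, its calls elsewhere say nothing about stability. Direction turned only for 4 genes that were not called. The log2 fold change of Acly was 0.017 with upper quartile scaling, 0.011 with the filter at 5 CPM, -0.046 to 0.046 leaving out each library in turn, and 0.048 without siRNA_ANK replicate 3 and Negative_control replicate 2 together. That of Hadha was -0.0040 to 0.095 leaving out each library and -0.0019 without both. That of Ppara was -0.17 to 0.089 and 0.12 in the same settings, and that of Gpam was -0.0088 to 0.089 leaving out each library. The cause was not tested.

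With a 1.5-fold limit added, which by construction keeps fewer genes, 1174 genes were higher and 811 lower; the members were 4 and 5, synthesis 1 and 3, oxidation 1 and 0, and the number lower was 0 for PPAR receptors and 1 for storage. Among other pathway genes the limit left 1 and 2 for synthesis, 2 and 0 for oxidation, 0 lower for PPAR partners, 2 lower for uptake and 5 lower for storage. Without siRNA_ANK replicate 3 and Negative_control replicate 2 together, 4 storage members were lower; of other pathway genes 5 of synthesis were higher, 5 of oxidation lower, and 1 PPAR partner was higher and 2 lower. Leaving out each library in turn gave 0 to 1 lower PPAR receptors, 2 to 5 higher other synthesis genes, 3 to 5 higher and 0 to 4 lower other oxidation genes, and 0 to 1 higher and 1 to 2 lower PPAR partners. The filter at 5 CPM gave 3 higher other oxidation genes, and the fit without a filter gave 2 lower PPAR partners. With the replicate number as a block, 2 PPAR partners were lower, 10 members were higher and 16 lower, Elovl1 lost its call (adjusted p = 0.055) and no other single gene did; replicate numbers shared between groups did not pair the libraries (correlations of same-numbered deviations -0.0306, 0.0835 and 0.0491). Depth limits the values of Lipe, Lpl, Angptl4, Acacb and Pparg.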
